A study of Mus musculus with 57 samples.

Results

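The progeny of Sox1 single-positive cells at day 6 (D6) of retinoic acid (RA) differentiation were compared with cells sorted as Sox1 single-positive at D6. The members were chosen by their labels alone, as the 3 libraries of Progeny_Day6_Sox1+FoxA2- and the 3 libraries of Day6_Sox1+FoxA2-, 6 of the 57 bulk RNA-seq libraries of the series. All 6 came from Sox1-EGFP/FoxA2mCherry, a mouse embryonic stem cell (ESC) line that is 1 selected clone, in which EGFP reports Sox1 and mCherry is joined to FoxA2. In the sorted arm, cells spent 6 days in serum-free N2B27 medium with 1 uM RA and were gated as Sox1+FoxA2- by flow cytometry on D6. In the progeny arm, cells spent 2 days in that medium, were gated as Sox1+FoxA2- on D2, were replated on gelatin in serum medium without LIF that held 1 uM RA, and were harvested 4 days later. The study's methods describe no gate at harvest for the progeny, although the labels give 1 sorting protocol for all samples. By those methods the sorter placed cells of the sorted arm straight into plates, whereas harvested progeny were counted by hand and transferred. Replating, serum, the day of the gate and the handling at harvest therefore differed together between the arms and cannot be told apart. The question addressed was how far cells that were Sox1+FoxA2- on D2 had moved from cells that were Sox1+FoxA2- on D6.

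Sox1 is a transcription factor gene of the early neural plate, and RA drives ESCs towards neural cells with hindbrain and spinal cord identity. N2B27 was designed for neural conversion, whereas serum carries lysophospholipids, growth factors and adhesion proteins. Serum lipids lead cells to polymerise actin, which frees the coactivator MRTF to join serum response factor (SRF) at CArG boxes of cytoskeletal genes, and which also keeps the coactivator YAP in the nucleus at TEAD sites. Attachment, spreading and serum are the textbook inducers of both routes and of the immediate early genes of the AP-1 family.

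The 6 libraries held 10474804 to 57493976 counts on genes, with the lowest total in progeny replicate 3 and 22857168 to 35982572 in the sorted arm. Over 5000 genes, Spearman's rank correlation was 0.896 to 0.945 between progeny libraries, 0.764 to 0.864 between sorted libraries and 0.488 to 0.660 between the arms. The biological coefficient of variation was 61.8% among the progeny and 91.6% among the sorted libraries. Sox1 itself could not serve as a check of the gate, since it held 0 counts in all 57 libraries and all of its exon bases lie inside another gene. Foxa2 held 205, 205 and 264 normalized counts in the progeny and 131, 124 and 20.3 in the sorted libraries, against means of 3065 and 2253 in the progeny and sorted Sox1-FoxA2+ libraries of D6. Genes of olfactory, vomeronasal and trace amine receptors, known for their expression in sensory neurons, took 1247 to 1921 ppm of all counts in the sorted libraries and 135 to 204 in the progeny (exact permutation p = 0.1, two-sided, and 3 libraries against 3 allow no lower value). Of these 1481 genes, 320 were tested, 0 were higher and 50 were lower (15.6%) in the progeny, with a median log2 fold change of -2.74. Over all genes tested 10.4% were lower. Among genes with a mean of 100 to 300 normalized counts 14.5% were lower (median -1.51), and among those under 100 it was 3.72% (median -1.53). The source of the counts on receptor genes and their part in the lower calls of the comparison were not tested.

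Over all genes, the progeny differed widely from the sorted cells, with mostly higher calls on the lists of serum response, matrix, cyclin-dependent kinase inhibitor and imprinted genes, and mostly lower calls on the lists of neuronal and pluripotency genes. Many calls on the imprinted, neuronal and pluripotency lists depended on single libraries, as given below. edgeR's quasi-likelihood test called 3921 of 20674 genes at an adjusted p under 0.05 (19%), of which 1779 were higher (8.61% of genes tested) and 2142 lower (10.4%) in the progeny. The median log2 fold change over all genes tested was -0.21. It varied with level, at -1.53 under 100 normalized counts, -1.51 at 100 to 300 and 0.05 at 300 to 1000. It was 0.32 at 1000 to 3000 and 0.47 above 3000. List medians below were not adjusted for level, so that a list of weakly counted genes is best read beside the medians of its level. The calls on each list are to be read beside 8.61% higher and 10.4% lower. Among genes with a mean of at least 1000 normalized counts the balance turned, with 1404 higher (22.5%) and 543 lower (8.71%) of 6237 tested. Among genes with a mean under 100 it was 26 higher and 229 lower of 6164. The 3 and 3 libraries did not overlap in 3824 of the called genes, against 42.3% of all genes tested.

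These counts depended on the libraries. Without progeny replicate 1 the test called 1970 genes, without progeny replicate 2 it called 2134, and without sorted replicate 1 it called 2305. In all 6 fits that left out 1 library, 745 of the higher calls (41.9%) and 827 of the lower calls (38.6%) were kept. Of the higher calls, 20 of 24 serum response, 17 of 24 matrix, 4 of 4 kinase inhibitor and 5 of 14 imprinted calls were kept. Of the lower calls, 3 of 6 neuronal, 2 of 6 core and formative and 0 of 4 naive pluripotency calls were kept. A fit of 18 D6 libraries called 867 genes and a fit of all 57 libraries called 678, and no gene called in the comparison changed its direction in any of these fits. Genes given with their 6 values below kept their call in all 6 fits that left out 1 library, unless a sentence says otherwise. Of these genes, Acta2, Tpm1, Cald1, Cnn2, Myh11, Vcl, Actg1, Col1a1, Col3a1, Col4a1, Sparc, Igfbp3, Fosl2, Jun, Vim, Zbtb16, Rbfox3, Map2, Ntn1, Cdh4, Nrp1, Sema3c, Lin28a, Cdkn1a, Mdm2, Peg3, Elovl6, Des, Anxa2 and Cecr2 were also called in both wider fits, and the others lost their call in 1 or both of them. Levels are DESeq2 normalized counts over all 57 libraries, and fold changes come from the edgeR fit with TMM scaling, so that the ratio of printed levels is smaller than the fitted fold for genes higher in the progeny and larger for genes lower in the progeny. Fewer cells of a type and less RNA per cell cannot be told apart in these bulk samples.

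**Figure D1:**
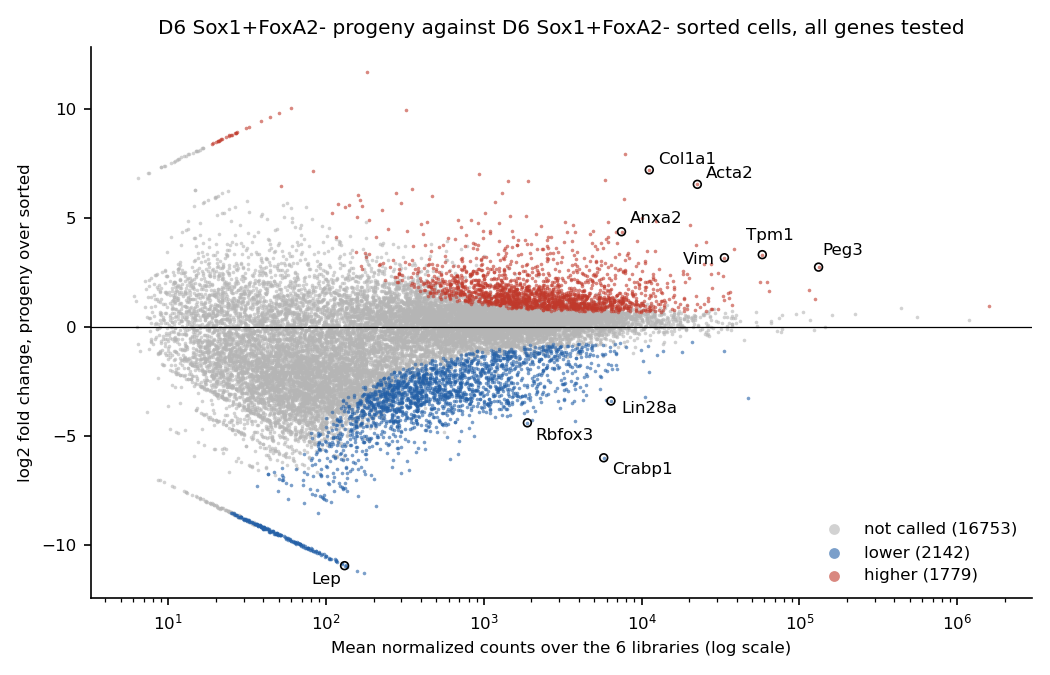
Log2 fold change (progeny over sorted, y axis) of each of the 20674 genes tested against its mean normalized count over the 6 libraries (x axis, log scale), with called genes coloured. Among strongly counted genes red points (higher in the progeny) outnumber blue ones, and among weakly counted genes blue ones do, with genes at 0 in 1 arm along the diagonal edges.

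Genes of the contractile cytoskeleton had the largest share of called members among the 37 lists. Of 28 genes on a list of serum response and smooth muscle genes, 26 were tested, 24 were higher in the progeny, 0 were lower, and the median log2 fold change was 2.43. Of the 24, 20 kept their call in every fit without 1 library and 17 were also called in the fits of 18 and of 57 libraries.

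Acta2, the smooth muscle actin gene (chromosome 19, 34241090 to 34255590, minus strand, GRCm38), held 51790, 40374 and 41238 normalized counts in the progeny and 196, 169 and 1430 in the sorted libraries. Its log2 fold change was 6.53 (SE 0.836, adjusted p = 9.4e-04), or 92.6-fold, and 8.19 without sorted replicate 3, the highest library of its arm. The groups lay more than an order of magnitude apart. Tpm1, which encodes a tropomyosin that lies along actin filaments, held 112579, 100800 and 97204 in the progeny and 14546, 9912 and 13701 in the sorted libraries (log2 fold change 3.31, SE 0.241, adjusted p = 9.2e-05). Cald1, the gene of the actin-binding regulator caldesmon, held 80242, 78300 and 51438 against 7965, 5980 and 8016 (3.55, SE 0.270, adjusted p = 9.4e-05). Every progeny library of these genes was above every sorted library.

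Myl9, a myosin regulatory light chain gene, held 4918, 3981 and 4316 in the progeny and 287, 118 and 261 in the sorted libraries (log2 fold change 4.60, SE 0.361, adjusted p = 9.4e-05). Cnn2, the gene of a calponin that steadies actin filaments, held 10153, 8717 and 9693 against 1342, 903 and 668 (3.57, SE 0.303, adjusted p = 1.2e-04). Myh11, the smooth muscle myosin heavy chain gene, held 6931, 10201 and 4242 against 659, 86.0 and 559 (4.35, SE 0.657, adjusted p = 0.00204). Vcl, the gene of the focal adhesion protein vinculin, held 19364, 20440 and 9429 against 4674, 5421 and 4084 (2.08, SE 0.317, adjusted p = 0.00150), and Actg1, a cytoplasmic actin gene, held 59136, 45216 and 50854 against 17337, 24164 and 20908 (1.59, SE 0.236, adjusted p = 0.00128). Tagln, a further smooth muscle gene, rose from 31.3, 0 and 0 to 711, 768 and 609, but 67.9% of its exon bases lie inside another gene, so that its level is uncertain, and its log2 fold change ran from 5.70 to 12.52 without 1 library, the highest without sorted replicate 1. Cnn1 (3.70, adjusted p = 0.0128) lost its call without progeny replicate 1 or 2. The members that did not pass were Fhl2, at 1473, 1224 and 1260 against 436, 872 and 1412 (adjusted p = 0.175), and the integrin gene Itga5 (1.41, adjusted p = 0.075). Srf, the gene of the factor itself, held 0 counts in every library, but it lies inside another gene, so that its level cannot be read. Of protein-coding genes with all exon bases inside another gene, 91.2% held 0 counts in all 57 libraries.

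The promoters of this list were searched for the CArG box, the DNA motif that SRF binds. The list was drawn up from known serum response genes, so a high share of boxes follows from the choice of genes and says nothing of SRF in these cells. RefSeq windows of 300 bases, from 250 before to 50 after a start site (GRCm38.p6), were found for 23 of the 28 genes in 26 windows. A CArG box on either strand lay in 8 of the 26 windows (30.8%), which belong to 7 genes, among them Fhl2, which was not called, and Srf and Filip1l, which held 0 counts, and in 535 of all 32851 windows (1.63%). The motif GGAATG, which TEAD factors bind, lay on either strand in 9 of the 26 windows (34.6%) and in 14.7% of all windows, and the AP-1 motif TGANTCA in 2 (7.69%) and in 7.81%. A match is a description of the sequence and not a bound site. The windows of 4 called genes with a box are printed to show what such promoters look like, 5′ to 3′ on the gene's strand, with the CArG box in capitals. In Myl9 (chr2:156775214-156775513, plus strand) the box begins 161 bases before the start, in Cnn2 (chr10:79988350-79988649, plus strand) 56, in Vcl (chr14:20929148-20929447, plus strand) 227 and in Actg1 (chr11:120348446-120348745, minus strand) 90.
Myl9: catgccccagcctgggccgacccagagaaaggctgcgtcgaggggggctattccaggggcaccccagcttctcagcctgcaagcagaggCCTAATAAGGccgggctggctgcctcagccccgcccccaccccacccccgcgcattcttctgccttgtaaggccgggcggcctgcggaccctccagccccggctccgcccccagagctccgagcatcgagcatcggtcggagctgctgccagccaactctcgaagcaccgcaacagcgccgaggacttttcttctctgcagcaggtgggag
Cnn2: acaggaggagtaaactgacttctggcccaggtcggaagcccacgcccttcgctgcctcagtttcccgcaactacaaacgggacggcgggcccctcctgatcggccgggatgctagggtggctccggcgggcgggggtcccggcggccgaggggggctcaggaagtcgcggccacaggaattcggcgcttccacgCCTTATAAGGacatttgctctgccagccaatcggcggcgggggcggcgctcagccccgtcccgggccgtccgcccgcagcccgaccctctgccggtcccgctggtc
Vcl: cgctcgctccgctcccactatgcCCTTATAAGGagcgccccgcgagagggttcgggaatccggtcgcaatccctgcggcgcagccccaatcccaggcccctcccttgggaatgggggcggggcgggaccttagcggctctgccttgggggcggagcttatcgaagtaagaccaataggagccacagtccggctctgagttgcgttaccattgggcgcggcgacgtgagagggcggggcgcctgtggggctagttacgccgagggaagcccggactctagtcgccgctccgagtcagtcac
Actg1: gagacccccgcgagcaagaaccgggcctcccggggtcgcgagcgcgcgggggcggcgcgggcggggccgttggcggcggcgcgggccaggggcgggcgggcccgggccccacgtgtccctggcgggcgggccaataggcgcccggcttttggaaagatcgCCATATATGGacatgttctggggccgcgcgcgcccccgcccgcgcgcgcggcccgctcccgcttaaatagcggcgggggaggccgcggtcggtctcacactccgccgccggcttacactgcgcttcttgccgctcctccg

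**Figure D2:**
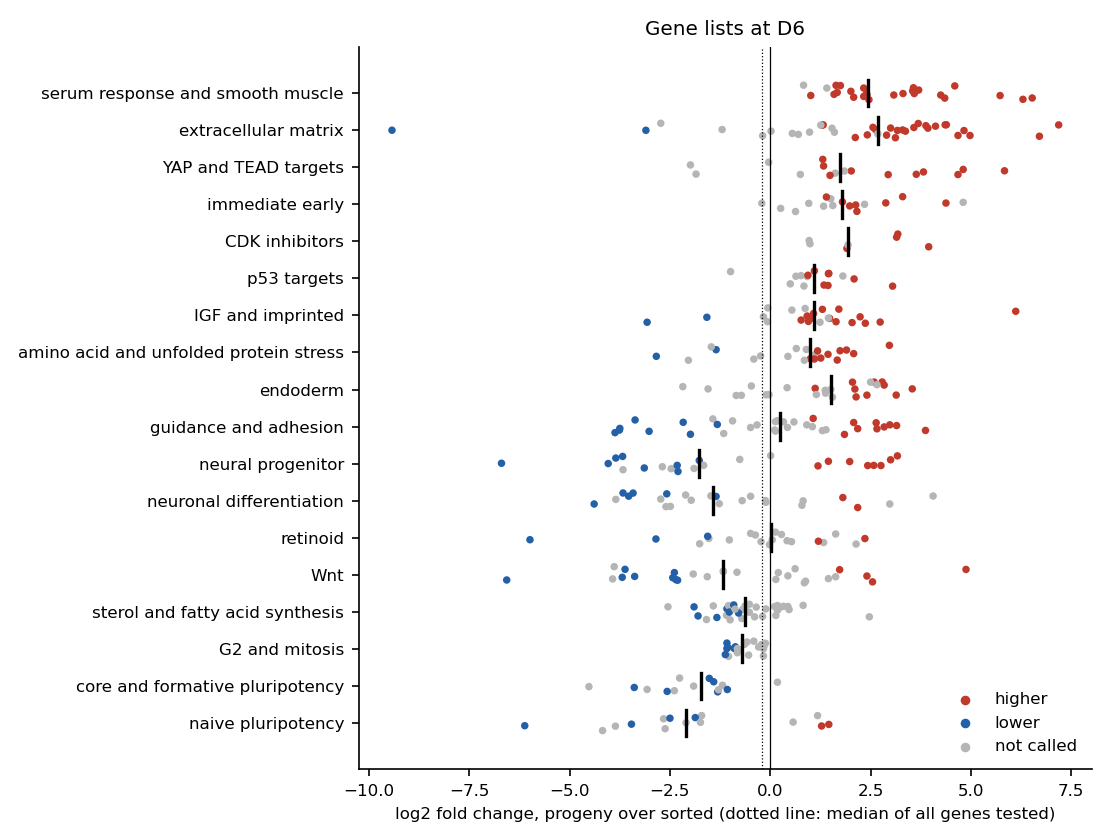
Log2 fold change (x axis, progeny over sorted) of every tested member of 18 gene lists (rows), with the list median as a black bar, the median of all genes as a dotted line and called genes in colour. All tested members of the serum response list lie right of 0, and the neuronal and pluripotency lists lie mostly left of it.

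Genes of the extracellular matrix rose with them. Of 40 listed genes 37 were tested, 24 were higher, 2 were lower and the median log2 fold change was 2.68, and 17 of the 24 kept their call in every fit without 1 library. Only 6 of the 24 were called in both wider fits. Col1a1, which encodes the main chain of fibrillar collagen I (chromosome 11, 94936224 to 94953042, plus strand), held 19654, 35821 and 11043 in the progeny and 261, 118 and 179 in the sorted libraries. This was the largest rise of the list, at 7.19 on the log2 scale (SE 0.522, adjusted p = 9.2e-05), or 146-fold. Col3a1, the gene of collagen III, held 9183, 19395 and 6127 against 241, 91.4 and 74.0 (6.71, SE 0.618, adjusted p = 1.8e-04). For both genes the lowest progeny library exceeded the highest sorted library by far, and progeny replicate 2 was the highest.

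Col4a1, a basement membrane collagen gene, held 53500, 48434 and 14762 against 2577, 535 and 2545 (log2 fold change 4.68, SE 0.668, adjusted p = 0.00168). Sparc, which encodes a collagen-binding protein, held 61870, 52996 and 27401 against 5650, 3086 and 3066 (3.88, SE 0.379, adjusted p = 1.9e-04). Thbs1, the thrombospondin gene, held 27849, 23205 and 6631 against 706, 925 and 595 (4.98, SE 0.509, adjusted p = 2.3e-04). Progeny replicate 3, the library with the lowest total, was the lowest progeny library for each of these 5 genes and stayed above every sorted library. Of the 2 lower members, Col6a3, a collagen VI chain gene, held 14, 110 and 67.6 against 490, 400 and 1156 (log2 fold change -3.10, adjusted p = 0.0218), and lost its call without progeny replicate 1 or 3 or sorted replicate 1 or 3. Mgp, the gene of an inhibitor of mineralisation, was at 0 in all progeny libraries and at 73.6, 77.9 and 135 in the sorted libraries, which is at least 97.8-fold lower at the floor of 3 counts over the group (adjusted p = 0.0277). It kept its call only in the fit without sorted replicate 2.

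YAP and TEAD target genes and immediate early genes were also higher. On the YAP list 16 of 16 genes were tested, 10 were higher, 0 were lower, and the median log2 fold change was 1.73. Ccn1, which encodes a matricellular protein and is a standard YAP readout, held 6861, 9019 and 5082 in the progeny and 611, 290 and 88.8 in the sorted libraries (4.68, SE 0.611, adjusted p = 7.5e-04). Igfbp3, the gene of an IGF-binding protein on this list, held 17263, 17120 and 10729 against 328, 132 and 512 (5.84, SE 0.472, adjusted p = 9.4e-05). Ccn2 (3.82, adjusted p = 0.00341) and Amotl2 (1.49, adjusted p = 0.00538), a feedback inhibitor of YAP, passed as well, while Ankrd1 at 1.62 did not (adjusted p = 0.335). GGAATG lay in 8 of the 15 promoter windows of the list (53.3%), against 14.7% of all windows, and a CArG box in 0. This list was made of known YAP and TEAD targets, so a high share of GGAATG follows from the choice of genes. It says nothing of TEAD in these cells.

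On the immediate early list 17 of 19 genes were tested, 8 were higher, 0 were lower, and the median was 1.80. Only 3 of the 8, Fosl2, Jun and Klf6, kept their call in every fit without 1 library. Fosl2, an AP-1 subunit gene, held 12388, 9025 and 6278 in the progeny and 692, 355 and 583 in the sorted libraries (log2 fold change 4.38, SE 0.352, adjusted p = 9.4e-05). Jun, its usual partner, held 8749, 6139 and 4934 against 1243, 777 and 422 (3.30, SE 0.405, adjusted p = 5.0e-04). Fos, the short-lived member, overlapped between the arms at 242, 585 and 584 against 68.1, 24.2 and 817 (adjusted p = 0.528).

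**Figure D3:**
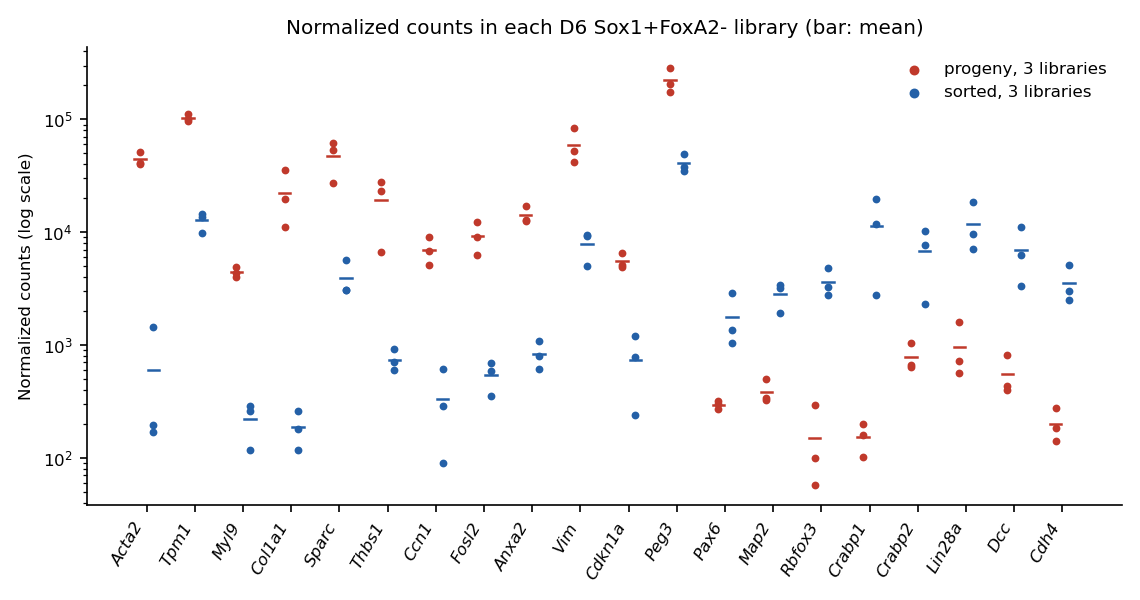
Normalized counts (y axis, log scale) of 20 genes (x axis) in each of the 3 progeny and 3 sorted libraries, with a bar at each mean. The 12 genes on the left lie higher in all progeny libraries and the 8 on the right lie higher in all sorted libraries.

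Neural progenitor genes changed in both directions. Of 32 neural progenitor genes 23 were tested, 8 were higher and 8 lower, with a median log2 fold change of -1.77, and 4 of the 8 calls in each direction held in every fit without 1 library. The higher ones included filament genes that mesenchymal cells also use. Vim, the vimentin gene (chromosome 2, 13573927 to 13582826, plus strand), held 83364, 52046 and 41610 in the progeny and 9241, 9492 and 5001 in the sorted libraries (3.17, SE 0.356, adjusted p = 3.2e-04). Nes, the nestin gene, held 15874, 22360 and 12291 against 4816, 4150 and 1228 (2.58, SE 0.458, adjusted p = 0.00332). Nr2f2, a nuclear receptor gene induced by RA, held 9730, 10511 and 10704 against 1526, 2389 and 1596 (2.76, SE 0.270, adjusted p = 1.9e-04). No library of these genes crossed between the arms. Nr2f1 (2.43) was also higher and kept its call, while Sox9 (3.0) lost its call without progeny replicate 1 or sorted replicate 2, Cdh2 (1.98) without sorted replicate 2, and Meis1 (1.19) and Meis2 (1.45) without sorted replicate 1.

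Among the lower progenitor genes, Pax6, a transcription factor gene of the ventricular zone (chromosome 2, 105668900 to 105697364, plus strand), held 317, 269 and 301 in the progeny and 1042, 2905 and 1361 in the sorted libraries (log2 fold change -2.32, SE 0.448, adjusted p = 0.00515). Zbtb16, a zinc finger gene of early neural progenitors, held 66.5, 66.7 and 258 against 2850, 2602 and 1975 (-4.04, SE 0.554, adjusted p = 8.3e-04). Pax7, a dorsal neural tube gene, fell by 3.85 on the log2 scale (adjusted p = 0.0109), and Msi1, the gene of the progenitor RNA-binding protein Musashi, fell by 1.77 (adjusted p = 0.00512). Fabp7, a radial glia gene, held 0, 11.2 and 0 against 1156, 567 and 64.7 (-6.70, adjusted p = 0.0106), but lost its call without sorted replicate 1. Sox2, a core factor of this group, held 0 counts in every library and lies inside another gene.

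Neuronal genes were lower in most called cases. Of 36 listed genes 24 were tested, 6 were lower (25.0%), 2 were higher (8.33%), and the median log2 fold change was -1.42. Over all genes tested 10.4% were lower and 8.61% higher, and weakly counted genes had negative medians as a whole. Of the 6 lower calls 3 held in every fit without 1 library, as did both higher ones. Rbfox3, which encodes the neuronal nuclear antigen NeuN (chromosome 11, 118489762 to 118911597, minus strand), held 57.8, 99.8 and 295 in the progeny and 3258, 4824 and 2787 in the sorted libraries (-4.39, SE 0.572, adjusted p = 6.4e-04). Elavl4, a neuronal RNA-binding protein gene, held 116, 108 and 98.4 against 1462, 1566 and 1508 (-3.53, SE 0.387, adjusted p = 2.9e-04). Map2, the gene of a dendritic microtubule protein, held 324, 496 and 335 against 3417, 1922 and 3203 (-2.58, SE 0.344, adjusted p = 7.0e-04). Each sorted library was above each progeny library in these genes, and Rbfox3 and Map2 were called in the wider fits too. The called genes Elavl3, Snap25 and Stmn2 each kept the call only in the fit without sorted replicate 2. The higher members were Nefm, a neurofilament gene, at 2135, 1784 and 1758 against 328, 597 and 594 (2.18, SE 0.348, adjusted p = 0.00193), and Gap43, a growth cone gene, at 2609, 2822 and 2281 against 835, 605 and 1273 (1.81, SE 0.315, adjusted p = 0.00309).

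Axon guidance and adhesion genes changed in both directions, with 10 higher and 8 lower of 34 tested and a median of 0.26. Of these calls 9 of the 10 higher and 7 of the 8 lower were kept in every fit without 1 library. Dcc, the netrin receptor gene, held 401, 430 and 818 in the progeny and 11192, 3298 and 6217 in the sorted libraries (log2 fold change -3.37, SE 0.444, adjusted p = 6.6e-04). Its ligand gene Ntn1 held 159, 203 and 498 against 4315, 2328 and 1631 (-3.02, SE 0.508, adjusted p = 0.00255). Cdh4, the R-cadherin gene, held 140, 183 and 277 against 3025, 2524 and 5078 (-3.87, SE 0.386, adjusted p = 2.1e-04). Receptor and ligand were thus lower together, as was the ephrin receptor gene Epha4, at 592, 625 and 892 against 4179, 4935 and 2243 (-2.17, SE 0.355, adjusted p = 0.00224). Among the higher genes, the neuropilin gene Nrp1 held 9639, 11477 and 5758 against 1157, 1626 and 1354 (2.98, SE 0.316, adjusted p = 2.6e-04), and the semaphorin gene Sema3c held 17544, 11275 and 4968 against 1460, 731 and 623 (3.87, SE 0.485, adjusted p = 5.3e-04). Cdh11, a cadherin gene of mesenchyme, was higher by 3.15 (adjusted p = 5.2e-04).

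Retinoid genes showed no common direction, with 2 higher and 3 lower of 20 tested and a median of 0.01. The cytosolic RA-binding protein genes were the largest called changes of the list. Crabp1 (chromosome 9, 54764748 to 54773110, plus strand) held 159, 102 and 197 in the progeny and 11726, 19555 and 2752 in the sorted libraries (log2 fold change -5.99, SE 0.699, adjusted p = 5.6e-04), which is 63.7-fold lower. Crabp2 held 1050, 640 and 658 against 7726, 10246 and 2316 (-2.85, SE 0.487, adjusted p = 0.00276). Sorted replicate 3 was the lowest of its arm for both genes and still above all progeny libraries. Aldh1a2, which encodes an enzyme that makes RA, was higher, at 1938, 2149 and 1921 against 725, 177 and 536 (2.36, SE 0.447, adjusted p = 0.00462). The RA target Rarb, at 1692, 3048 and 2293 against 2472, 2814 and 3434, gave -0.02 (adjusted p = 0.965). Stra8, another RA-induced gene, passed narrowly at -1.56 (adjusted p = 0.0492) and kept its call only in the fit without progeny replicate 3. Of 17 Hox genes tested, Hoxb4, Hoxb9 and Hoxc4 were higher (1.51, 1.49 and 1.78), 0 were lower and the median was 0.80, but each of the 3 lost its call without progeny replicate 1 and without sorted replicate 1.

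Pluripotency genes were lower in most of their calls. Of 14 core and formative genes tested 6 were lower and 0 higher, with a median log2 fold change of -1.71. Lin28a, the gene of the RNA-binding protein that blocks let-7 maturation (chromosome 4, 134003330 to 134018841, minus strand), held 561, 722 and 1589 in the progeny and 9710, 18650 and 7097 in the sorted libraries (-3.39, SE 0.473, adjusted p = 9.1e-04). Trim71, a let-7 target gene, held 5451, 5189 and 6219 against 15092, 14760 and 12980 (-1.07, SE 0.215, adjusted p = 0.00635). These were the 2 of the 6 that kept their call in every fit without 1 library. Pou5f1, the gene of OCT4, did not pass, at 0, 0 and 67.6 against 390, 590 and 642 (adjusted p = 0.079), nor did Nanog, at 14.9, 171 and 775 against 990, 535 and 3451 (adjusted p = 0.204). Of 15 naive genes tested 4 were lower and 2 (Klf5 and Tbx3) higher, with a median of -2.10, and none of these 6 calls held in every fit without 1 library. Of 15 genes of the two-cell-like state tested 3 were lower, with a median of -2.30, and they come from families of near-identical copies whose counts are uncertain.

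Among Wnt genes 4 were higher and 8 lower of 27 tested, with a median of -1.17. Wnt8a, a ligand gene of the early posterior embryo, held 0, 3.74 and 18.4 in the progeny and 648, 679 and 672 in the sorted libraries (log2 fold change -6.57, SE 1.18, adjusted p = 0.00336). Sfrp2, the gene of a secreted Wnt inhibitor, held 82.3, 32.4 and 117 against 1162, 1412 and 932 (-3.69, SE 0.563, adjusted p = 0.00150). The canonical pathway's nuclear factor gene Lef1 held 245, 208 and 307 against 1652, 2365 and 738 (-2.39, SE 0.475, adjusted p = 0.00601). The non-canonical ligand gene Wnt5a was higher, at 1280, 1440 and 1242 against 42.3, 0 and 124 (4.88, adjusted p = 0.00984), but lost its call without progeny replicate 1 or 2 or sorted replicate 1. Among TGF-beta and BMP genes 5 were higher and 4 lower of 25 tested, with a median of 0.58. All 5 higher calls held in every fit without 1 library, namely the ligand gene Tgfb2 (2.19), its latency protein gene Ltbp1 (2.42), the induced genes Tgfbi (1.99) and Id3 (2.50) and the inhibitor gene Smad7 (1.80). Lefty1, the gene of a Nodal antagonist, held 14, 0 and 40.0 against 1677, 465 and 1489 (-6.03, adjusted p = 0.00575), but lost its call without progeny replicate 1.

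Inhibitors of cyclin-dependent kinases were higher. Of 7 listed genes 4 were higher, 0 lower, the median log2 fold change was 1.94, and all 4 calls held in every fit without 1 library. Cdkn1a, the gene of p21, held 6501, 5131 and 4934 in the progeny and 1189, 775 and 238 in the sorted libraries (3.18, SE 0.486, adjusted p = 0.00151). Cdkn1c, the gene of p57 and an imprinted gene, held 4516, 4028 and 4774 against 797, 633 and 388 (3.15, SE 0.320, adjusted p = 2.3e-04). Cdkn2b, the gene of p15, held 3109, 2176 and 1608 against 290, 77.9 and 179 (3.95, SE 0.490, adjusted p = 5.3e-04). The groups did not overlap in any of the 3 genes. Of 15 p53 targets 8 were higher and 0 lower, with a median of 1.10, and 3 of the 8 calls held in every fit without 1 library, among them that of Mdm2, the gene of the p53 inhibitor, at 30130, 23982 and 19484 against 9788, 6949 and 4245 (2.09, SE 0.322, adjusted p = 0.00160). Of 20 genes of G2 and mitosis 6 were lower and 0 higher, with a median of -0.71, and of 18 S phase genes tested 4 were lower and 0 higher, with a median of -0.38. None of these 10 calls held in every fit without 1 library. The proliferation marker Mki67 did not pass, at 8010, 19276 and 12629 against 22891, 17591 and 24755 (adjusted p = 0.367).

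Imprinted and IGF genes were mostly higher, with 14 higher and 2 lower of 23 tested and a median of 1.08, but only 5 of the 14 higher calls and 0 of the 2 lower calls held in every fit without 1 library. Peg3, a paternally expressed zinc finger gene, held 207713, 286379 and 176507 in the progeny and 49795, 37854 and 34707 in the sorted libraries (log2 fold change 2.74, SE 0.280, adjusted p = 2.3e-04). H19, a maternally expressed non-coding RNA, held 93505, 90883 and 106024 against 46483, 22047 and 17317 (2.04, SE 0.342, adjusted p = 0.00248). Dlk1, a paternally expressed Notch-like ligand gene, held 1950, 2681 and 3068 against 118, 0 and 14.8 (6.12, adjusted p = 0.00563), but lost its call without progeny replicate 2 or sorted replicate 3. Genes of both parental origins were thus among the higher ones. The lower members were Grb10 (-1.58, adjusted p = 0.0170), which lost its call without progeny replicate 3, and Snrpn (-3.07), which lost its call without progeny replicate 1 or sorted replicate 1 and of which 94.2% of exon bases lie inside another gene.

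Marker sums of other cell types differed between the arms. The summed level of 7 mesenchyme markers was 25513 to 70506 in the progeny and 1394 to 2359 in the sorted libraries, with 6 of 7 genes higher and none at 0 throughout an arm. Pdgfra, the PDGF receptor gene of mesenchyme, held 3959, 4785 and 3329 against 253, 421 and 78.6 (log2 fold change 4.27, SE 0.545, adjusted p = 5.8e-04), and Prrx1 and Twist1, transcription factor genes of mesenchyme, were higher by 3.0 and 2.45. On the wider list of neural crest and mesenchyme 6 were higher and 3 lower of 28 tested, with a median of 0.68. The summed level of 4 neural crest markers, 1 of them at 0 in both arms, was 28.7 to 135 against 991 to 1426, and that of 6 neuron markers, again with 1 at 0 in both arms, was 870 to 1214 against 4894 to 7519. The 8 neuroectoderm markers summed to 14547 to 25334 against 2715 to 8582, with 2 higher and 2 lower of 5 tested and 3 at 0 in all progeny libraries. Nes made up most of this sum in the progeny, while Pax6 and Fabp7 were lower. The 4 pluripotency markers summed to 193 to 2942 against 2979 to 12616, with 1 lower, and the 4 endothelium and blood markers to 501 to 1064 against 1998 to 3496, also with 1 lower. The 4 muscle markers summed to 40541 to 51874 against 228 to 1862, but Acta2, the only one of the 3 tested that was called, made up nearly all of this sum in the progeny. The 4 epithelium markers summed to 17922 to 30026 against 4123 to 13964, with 2 higher. Meox1, a somite factor gene, held 31.5, 28.7 and 111 against 1149, 2470 and 1052 (-4.61, SE 0.658, adjusted p = 0.0010).

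Endoderm markers summed to 6966 to 8876 in the progeny and 1943 to 3282 in the sorted libraries, with 5 of 6 genes higher. On the wider endoderm list 10 were higher and 0 lower of 25 tested, with a median of 1.51, and 6 of the 10 calls held in every fit without 1 library. Gata6, an endoderm transcription factor gene, held 2110, 2975 and 2152 in the progeny and 109, 328 and 322 in the sorted libraries (log2 fold change 3.54, SE 0.454, adjusted p = 6.0e-04). These levels stayed far under those of D6 Sox1-FoxA2+ cells, whose means were 15742 in the progeny and 11998 in the sorted libraries. Gata4 (2.79, adjusted p = 0.0203) lost its call without progeny replicate 1 or sorted replicate 3, and Foxa2 did not pass (1.55, SE 0.924, adjusted p = 0.264). Of 16 epithelial genes tested 4 were higher and 0 lower, with a median of 0.68, and Krt19, a keratin gene, held 10438, 8444 and 14101 against 984, 661 and 806 (4.03, SE 0.284, adjusted p = 9.2e-05). The part of cells of these other types in the results above was not tested.

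Metabolic and stress genes changed in both directions. Of 34 genes of sterol and fatty acid synthesis tested 7 were lower and 0 higher, with a median log2 fold change of -0.63, and Elovl6, a fatty acid elongase gene, held 1126, 1753 and 1506 in the progeny and 6902, 3381 and 8540 in the sorted libraries (-1.80, SE 0.330, adjusted p = 0.00393). Of 27 glycolysis and hypoxia genes tested 2 were higher and 6 lower, with a median of 0.00, and the glucose transporter gene Slc2a3 held 2204, 4325 and 4387 against 20860, 8989 and 25804 (-2.05, SE 0.377, adjusted p = 0.00405). Of 21 genes of amino acid and unfolded protein stress 10 were higher and 2 lower, with a median of 1.00, and 4 of the 10 higher calls held in every fit without 1 library. Among the higher ones the chaperone gene Hspa5 (1.74, adjusted p = 0.00684) and the transcription factor gene Xbp1 (1.67, adjusted p = 0.00439) kept their call, and among the lower ones the cystine transporter gene Slc7a11 did (-2.84, SE 0.422, adjusted p = 0.00127).

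The other lists are given by their counts of calls, beside 8.61% higher and 10.4% lower over all genes tested. Higher and lower calls were 1 and 2 of 12 muscle genes tested (median -0.47), with Des, the desmin gene, higher at 7113, 4730 and 3892 against 641, 667 and 227 and the sarcomere genes Ttn (-2.52) and Actn2 (-3.04) lower. They were 1 and 2 of 13 hedgehog genes (median -0.55), where the receptor and target gene Ptch1 was lower by a log2 fold change of -1.99 (adjusted p = 0.00240) and the co-receptor gene Gas1 higher by 3.69 (adjusted p = 2.3e-04). They were 3 and 3 of 22 FGF genes (median -0.03), 1 and 1 of 14 Notch genes (-0.01), 1 and 0 of 9 mesoderm genes (-1.35) and 0 and 1 of 10 blood and endothelium genes (-1.15). For 10 glial genes tested they were 2 and 1 (-0.71), for 16 interferon genes 0 and 1 (0.54), and for 15 genes of oxidative stress and metallothioneins 4 and 1 (0.12). For 8 iron genes they were 1 and 0 (0.45), for 11 steroid and thyroid hormone genes 1 and 2 (-0.22), and for 7 liver X receptor targets 1 and 0 (0.27).

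Genes picked by size and by p added a few names outside the lists. The smallest p of all 20674 genes tested belonged to Anxa2, the gene of a membrane-binding annexin, which held 16927, 12517 and 12773 in the progeny and 1075, 804 and 616 in the sorted libraries (log2 fold change 4.36, SE 0.300, adjusted p = 9.2e-05). Pgm5, the gene of an adherens junction protein, held 11919, 11509 and 7040 against 1016, 793 and 811 (3.83, SE 0.294, adjusted p = 9.4e-05), and Pgr, the progesterone receptor gene, held 2832, 3218 and 2515 against 204, 118 and 181 (4.38, SE 0.337, adjusted p = 9.4e-05). Phldb2, whose product anchors microtubules at adhesions, was higher by 3.34 (adjusted p = 9.4e-05). Among the 15 largest changes were Gng11, a G protein subunit gene, at 679, 701 and 553 against 0, 0 and 1.85, and Ahnak2, at 429, 510 and 160 against 0 in all sorted libraries, at least 356-fold higher at the floor of 3 counts. Ecm1 (7.92, adjusted p = 0.00206) and Ptgs2, the gene of cyclooxygenase 2 (6.68, adjusted p = 0.00476), both lost their call without progeny replicate 2. The 15 smallest were genes at or near 0 in the progeny, which reached the minimum mean for naming through the sorted libraries. Among them the leptin gene Lep was at 0 against 101, 524 and 161, at least 268-fold lower, and was called in neither wider fit. The 15 smallest included the receptor genes Olfr988, Vmn2r6 and Vmn2r116, of the families that took a larger share of counts in the sorted libraries. Whether the other low counts of the sorted libraries share the source of the receptor counts was not tested. Olfr988 lost its call without progeny replicate 1 or 3, and Vmn2r6 without progeny replicate 1 or 2 or sorted replicate 1 or 2.

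The same contrast 2 days earlier, in 6 other libraries, called 72 of 18609 genes, 60 higher (0.322%) and 12 lower (0.0645%). Beside the values above, the D4 contrast of Acta2 was 6.28 on the log2 scale (SE 1.18, adjusted p = 0.0735), with means of 46527 in D4 progeny, 631 in D4 sorted cells and 1.94 in D2 sorted cells. Crabp1 gave -5.57 at D4 (SE 0.813, adjusted p = 0.0134), from a D2 mean of 1828 to 109 in D4 progeny and 5713 in D4 sorted cells. Vim gave 1.70 (SE 0.532, adjusted p = 0.278). Of the genes called higher at D6 90.9% had the same sign at D4, with a median log2 fold change of 0.71 there and 1.47 at D6, and of those called lower 92.8% did, with medians of -1.38 and -2.95. The median over all genes tested at D4 was -0.12, and the share of same sign over all genes was not taken. Same-numbered sorted libraries of D4 and D6 deviated together, so the D4 and D6 contrasts are not fully independent. The test of the difference between the D6 and the D4 contrast called 0 of 23465 genes (0%), with 1417 at an unadjusted p under 0.05 and a smallest adjusted p of 0.181, and DESeq2 called 222. By the smallest p, Mmp16, a matrix metalloproteinase gene, came first, with 2.15 at D6 and -1.75 at D4, followed by Igfbp3, Nubp1, Lrmda and Cobl, and none of the 5 was called. Rbfox3, at -4.39 on D6 and -1.92 on D4, gave an adjusted p of 0.740 for the difference.

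**Figure D4:**
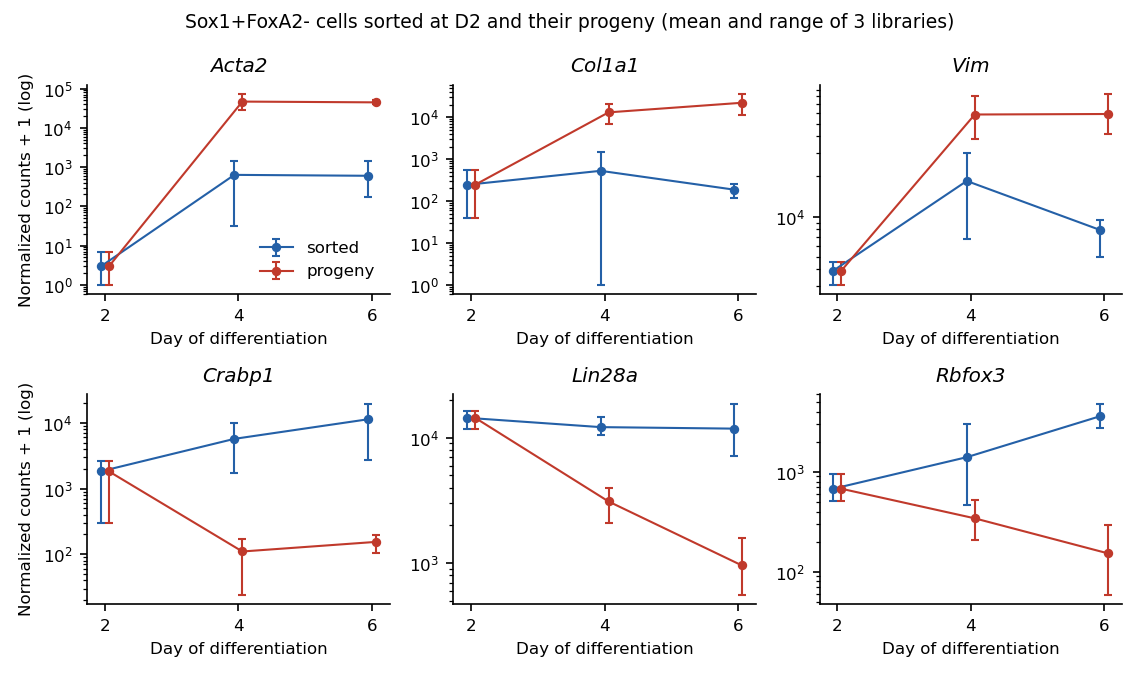
Normalized counts plus 1 (y axis, log scale) of 6 genes in Sox1+FoxA2- cells sorted at D2, D4 and D6 (blue) and in the progeny of cells sorted at D2 (red, joined to the same D2 libraries), as the mean and range of 3 libraries. Acta2 reached 46527 in the progeny by D4 and stayed there, Lin28a fell from 14421 at D2 to 3102 at D4 in the progeny, and Rbfox3 rose over the days in the sorted cells alone.

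The contrast of progeny with sorted cells was also taken in the Sox1-FoxA2+ gate at D6, where it called 1 of 18030 genes (0.00555%). Sizeable contrasts there were not called, such as that of Fosl2 at 2.06 (SE 0.309, adjusted p = 0.110). The count of calls thus does not measure how far this gate changed. Of the genes called higher in Sox1+FoxA2- cells, 84.6% of those tested had the same sign in this gate, with a median of 0.52. Of those called lower 82.9% did, with a median of -1.15, and the median over all genes tested there was -0.06. As for D4, the share of same sign over all genes was not taken. The serum response list had a median of 1.23 there, with 0 of 26 tested genes called. Same-numbered sorted libraries of both gates deviated together. A test of the difference between the gates, over 12 libraries, called 49 of 23203 genes (0.211%), 33 with a more positive contrast in Sox1+FoxA2- cells (0.142%) and 16 with a more negative one (0.0690%). On simulated data this test made more false calls than its threshold allows, so the 49 are less certain than their adjusted p. Of the 33, 31 were also higher in the Sox1+FoxA2- contrast, and of the 16, 15 were also lower. Anxa2 had the smallest p, with 4.36 in the Sox1+FoxA2- gate and 0.94 in the Sox1-FoxA2+ gate (difference 3.34, SE 0.424, adjusted p = 0.00516). Vim rose by 3.17 in the first and gave -0.20 in the second, where its mean was 18941 in the progeny and 22258 in the sorted libraries (difference 3.30, SE 0.484, adjusted p = 0.00990). Sparc and Gata6 were already high in both Sox1-FoxA2+ groups, and their differences were 3.40 (adjusted p = 0.0147) and 3.04 (adjusted p = 0.0369). Cryab, the gene of a small heat shock protein, rose by 3.55 from 249, 185 and 74.0 to 2136, 1493 and 1313, while its means were 5403 and 5367 in Sox1-FoxA2+ progeny and sorted cells (difference 3.40, adjusted p = 0.00990).

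Among the genes with a negative difference, Cecr2, a chromatin remodelling gene, held 588, 1039 and 1734 in Sox1+FoxA2- progeny and 9932, 10861 and 8550 in sorted cells, and its means were 5801 and 4836 in the Sox1-FoxA2+ groups (difference -3.27, SE 0.463, adjusted p = 0.00990). Epha4 fell in the first gate and gave 1.11 in the second (difference -3.35, adjusted p = 0.0196), and the channel gene Trpm6 gave -2.58 and 0.66 (difference -3.32, adjusted p = 0.00990). Apoe, the apolipoprotein E gene, was not called in Sox1+FoxA2- cells, at 483, 974 and 935 against 1530, 374 and 2210, and was the 1 gene called in the other gate, with a log2 fold change of -3.88 (adjusted p = 0.0127) and a difference of 3.33 (adjusted p = 0.0489). Acta2, the largest serum response change, gave 4.35 in the Sox1-FoxA2+ gate, and the difference of 2.10 was not called (adjusted p = 0.495).

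**Figure D5:**
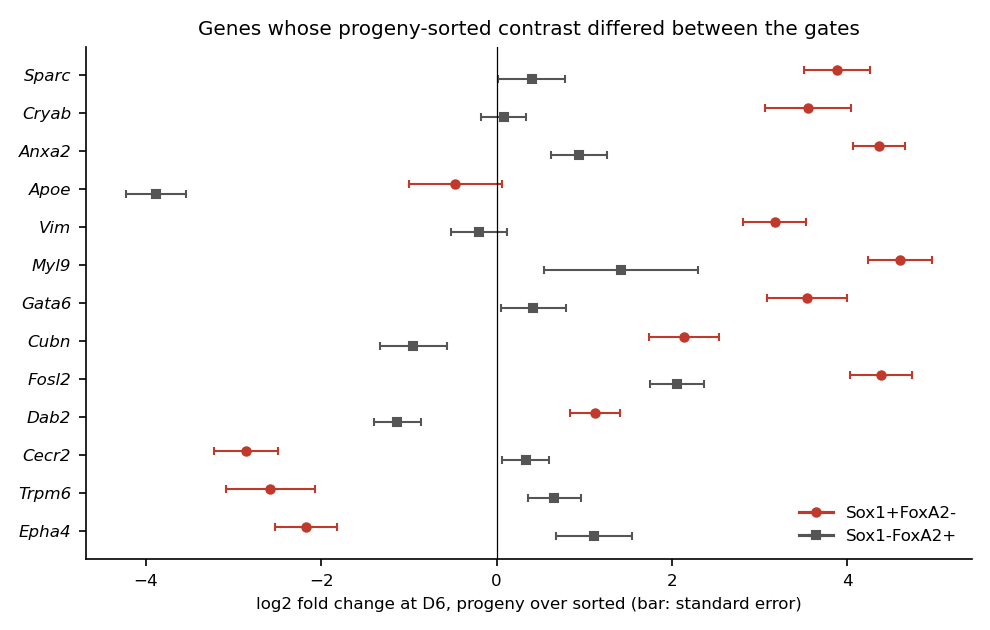
Log2 fold change at D6 (x axis, progeny over sorted, with its standard error) of 13 genes (rows) whose contrast differed between the gates, in Sox1+FoxA2- cells (red circles) and in Sox1-FoxA2+ cells (grey squares). In 12 of the genes the Sox1+FoxA2- contrast lies farther from 0 than the other or on the other side of it, and Apoe lies near 0 in the Sox1+FoxA2- gate and at -3.88 in the other.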

How the data were processed

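RNA was sequenced from 57 samples in 19 conditions of 3 replicates, which the study's methods call biological replicates. The authors prepared libraries with a stranded SMART-Seq kit, aligned reads with STAR, handled them with SAMtools and counted them on GENCODE genes (GRCm38) with featureCounts. Versions and the strand setting are not given in the sources used here. The deposited values are raw counts for 55450 genes, and 92 rows that name no gene held 0 counts. Groups were taken from the sample labels.

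Progeny and sorted libraries of D6 Sox1+FoxA2- cells were compared with edgeR 4.0.16 (R 4.3.3, TMM scaling, filterByExpr at min.count 10 and min.total.count 15, robust glmQLFit and glmQLFTest), on the 6 libraries, with Benjamini-Hochberg adjustment over all genes tested and a threshold of 0.05. Differences between gates and between days were interaction terms over 12 libraries each. Single values were compared by exact permutation tests. Levels printed are counts divided by DESeq2 1.42.0 size factors over all 57 libraries. Depth was 10474804 to 57493976 counts, so that low genes were measured least precisely in progeny replicate 3. Bounds for genes at 0 used a floor of 3 counts over the group and cover counting error only. Genes were named from 37 lists of 796 genes, and by rule as the 15 largest and 15 smallest called fold changes among genes whose arms did not overlap and whose mean over the 6 libraries was at least 100 normalized counts, the 10 smallest p and the 5 smallest p of each interaction, leaving out predicted genes and clone names. The members and lists were chosen with earlier results of these data known. Promoter windows were taken from RefSeq (GRCm38.p6). The scripts were tested on simulated data, where DESeq2 and the edgeR interaction tests made more false calls than the threshold allows. Alternatives were DESeq2's test, no filter, RLE scaling, a replicate block, fits of 18 and 57 libraries, leaving out each library and, added after seeing the data, minimum means of 100 and 1000.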

Additional observations from a re-analysis of the deposited data

Results flagged for a closer look

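The contrast of progeny with sorted cells at D6 differed between the Sox1+FoxA2- and the Sox1-FoxA2+ gate in 49 genes, by the interaction term of the edgeR fit with adjusted p-values. The log2 difference, Sox1+FoxA2- minus Sox1-FoxA2+, was 3.34 for Anxa2, 3.30 for Vim, 3.40 for Cryab, 3.40 for Sparc and 3.11 for Myl9. For Gata6, Cubn and Dab2, genes used in endoderm, it was 3.04, 3.03 and 2.18. It was 2.24 for the AP-1 gene Fosl2 and 3.33 for Apoe. It was negative for Cecr2 at -3.27, for Trpm6 at -3.32 and for Epha4 at -3.35. The causes of these differences were not tested.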

How the results depend on the processing

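The 3921 calls (1779 higher, 2142 lower) became 7227 (4659 lower) with DESeq2, 867 (526 higher, 341 lower, 60.7% of calls higher) in a fit of 18 D6 libraries, 678 (540 higher, 138 lower, 79.6% higher) in a fit of 57 libraries and, added after seeing the data, 1947 (543 lower, 72.1% higher) among genes with a mean of at least 1000. Without 1 library they ran from 1970 to 4473, with 858 to 2065 higher and 1112 to 2408 lower. With a replicate block the test called 3331 genes, but same-numbered libraries of the 2 arms did not deviate together (r = 0.0334, -0.305 and -0.0421), so that they share only a number, and 0 of 3 correlated best with its own number. Same-numbered sorted libraries did deviate together, D6 Sox1+FoxA2- with D6 Sox1-FoxA2+ (r = 0.184, 0.198 and 0.123) and with D4 Sox1+FoxA2- (r = 0.276, 0.347 and 0.266), each best with its own number. With a replicate block 64 genes differed between gates and 0 between days. The 49 genes that differed between gates became 1301 (359 positive, 942 negative) with DESeq2, 408 (196 and 212) without a filter and 3 (1 and 2) over 57 libraries, and ran from 19 to 335 without 1 library (12 to 126 positive, 6 to 209 negative), with 335 without Sox1-FoxA2+ sorted replicate 3. The 0 genes that differed between days became 222 (65 and 157) with DESeq2 and 69 (46 and 23) without a filter, and 0 to 29 without 1 library (0 to 6 positive, 0 to 23 negative), with 29 without D4 sorted replicate 3. Why was not tested.

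Values near 0 changed sign. Rarb gave 0.07 over 57 libraries and -0.27 to 0.18 without 1 library, and Apoe -0.89 to 0.04. The difference between days of Anxa2 was -0.06 with DESeq2, -0.05 with RLE scaling, -0.10 with a replicate block and -0.56 to 0.59 without 1 library. That of Epha4 was -0.01, -0.01, -0.09 and -0.94 to 0.64, and that of Cryab -1.47 to 0.30 without 1 library. Of 517 list medians recomputed 39 moved beyond the spread between library pairs. Of 126 genes named, 73 lost their call over 57 libraries and 60 over 18.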
